A study of Mus with 21 samples.

Results

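The genes of the cornified envelope and of the epidermal barrier were followed in skin wounds of mice on Day 4. All symbols of the count files that begin with Sprr or Lce were taken, 14 and 21 genes, together with 25 genes named singly, which gave 60 of 18806 genes. The 25 were Ivl, Lor, Flg, Flg2, Hrnr, Rptn, Tchh, Cnfn, Tgm1, Tgm3, Casp14, Dsg1a, Dsc1, Dsp, Ppl, Evpl, Klk5, Klk7, Spink5, Alox12b, Aloxe3, Cers3, Grhl3, Klf4 and Ovol1. The rule uses gene names alone.

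The wounds were circular, full-thickness and 8 mm wide, and were made on the backs of female wild-type C57BL/6 mice that were 8 weeks old. The control wounds received no hydrogel scaffold. The other wounds received a gelatin methacryloyl (GelMA) hydrogel of pH 6.4, 7.4 or 8.4 that carried either acidic (aFGF) or basic (bFGF) fibroblast growth factor, which are secreted proteins that act on fibroblasts, endothelial cells and keratinocytes. Each of the 7 groups had 3 sequencing libraries, labelled as biological replicates, and 21 were analysed in all. The study's methods name 3 mice per group with wounds on both sides of the back, and do not say which mouse each library came from. Every mouse carried the wound, and no group had a gel without a factor or a factor without a gel, so that gel and factor cannot be told apart in a comparison with control.

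The cornified envelope is a cross-linked protein shell that replaces the plasma membrane of keratinocytes as they die at the surface of the epidermis. Transglutaminases join scaffold proteins of the desmosome and plakin families with involucrin, loricrin, small proline-rich (Sprr) proteins and late cornified envelope (Lce) proteins, while lipid enzymes coat the shell and proteases control the shedding of dead cells. In healed skin these genes mark the finished barrier, and several Sprr and Lce3 genes are known to be raised in injured or inflamed epidermis.

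Total counts per library were 34362558 to 37817833, and the 60 genes took 0.146% to 0.323% of them (median 0.231%). Every gene had a count in every library, and the lowest count was 4. Libraries of one group differed by more than counting noise, so that errors are standard deviations (SD) over libraries. Epidermal markers of the labelled tissue were present in all libraries, with the keratins Krt5 and Krt14 of basal keratinocytes at 754 ± 202 and 2031 ± 457 CPM (counts scaled to a library of fixed size) in the bFGF libraries (SD, n = 9). In 3 libraries a gene of another tissue stood out. Col2a1, a cartilage collagen, had 195.4 CPM in 7.4-GelMA/aFGF replicate 3 and at most 0.965 elsewhere. Alb, the albumin of liver, had 138 CPM in 8.4-GelMA/aFGF replicate 2 and at most 14.1 elsewhere. Ovgp1, a glycoprotein of the oviduct, had 80.0 CPM in 8.4-GelMA/bFGF replicate 2 and at most 1.93 elsewhere. For the 60 genes, the main comparisons and the correlations that hold these libraries are given with and without them. Alternative fits, such as the hydrogel libraries alone, and a wider list of barrier genes are not given without them. Libraries are bulk tissue, in which fewer keratinocytes and less RNA per keratinocyte cannot be told apart.

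Levels were compared between genes in FPKM, the fragments scaled by gene length and by library size. The 2 highest levels belonged to small proline-rich proteins, flexible bridges that are cross-linked into the envelope, though others of this family were among the lowest. Sprr1a had a mean of 234 FPKM over the 21 libraries, Sprr2d 188 FPKM and Sprr1b 104 FPKM, while Sprr3 had only 0.359 FPKM and was the lowest of all 60 genes. Loricrin (Lor), the main glycine-rich protein of the mature envelope, had 105 FPKM and cornifelin (Cnfn), a minor envelope protein, 93.8 FPKM. The late S100-fused proteins, giant precursors that bundle keratin filaments, were low for their length, with filaggrin (Flg) at 3.29, hornerin (Hrnr) at 2.73 and Flg2 at 0.507 FPKM, whereas repetin (Rptn) had 24.2 FPKM. Among the Lce genes, Lce1a1 had the highest level with 46.6 FPKM and Lce6a the lowest with 7.67 FPKM. Klk7, a protease that cuts the desmosomes of dead cells, had 77.1 FPKM and its inhibitor Spink5 14.0 FPKM. The desmosomal anchor desmoplakin (Dsp) had 32.1 FPKM, and the transcription factors Klf4, Grhl3 and Ovol1, which drive terminal differentiation, had 18.1, 4.88 and 3.39 FPKM. Among the near-identical Sprr2a copies, Sprr2a1 and Sprr2a2 were listed at 3.17 and 1.82 FPKM over a length of 3547 bases each and Sprr2a3 at 26.5 FPKM over 852 bases. How reads were divided among such copies, and among the Sprr2 and Lce1 genes in general, is not given in the sources used here, and their single values are uncertain for that reason. By symbol, all 60 genes were found in the RefSeq table of mouse assembly GRCm38.p6, and 42 of them, all Sprr and Lce genes included, lay in 1 run of 50 neighbouring protein-coding genes.

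The 60 genes varied more between libraries, at the median, than all genes tested. From here on levels are CPM after TMM scaling over the 21 libraries, and changes are log2 values. The median SD of a member's log2 CPM was 0.56 over the 21 libraries, against 0.32 for all 15811 genes tested, and the median SD within groups was 0.55 against 0.29. Differences between groups took 36.7% of a member's variance at the median, against 39.0% for all genes, so that most of the variation lay between libraries of one group. The Sprr2 genes varied most, with a median ratio of highest to lowest library of 12.9, against 3.81 for the Lce1 genes and 2.48 for the Sprr1 genes. Sprr2b ranged from 0.496 CPM in control replicate 3 to 58.3 CPM in 8.4-GelMA/bFGF replicate 3, a ratio of 117. Klk7 had the narrowest range, 88.0 to 184 CPM, a ratio of 2.09.

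**Figure D1:**
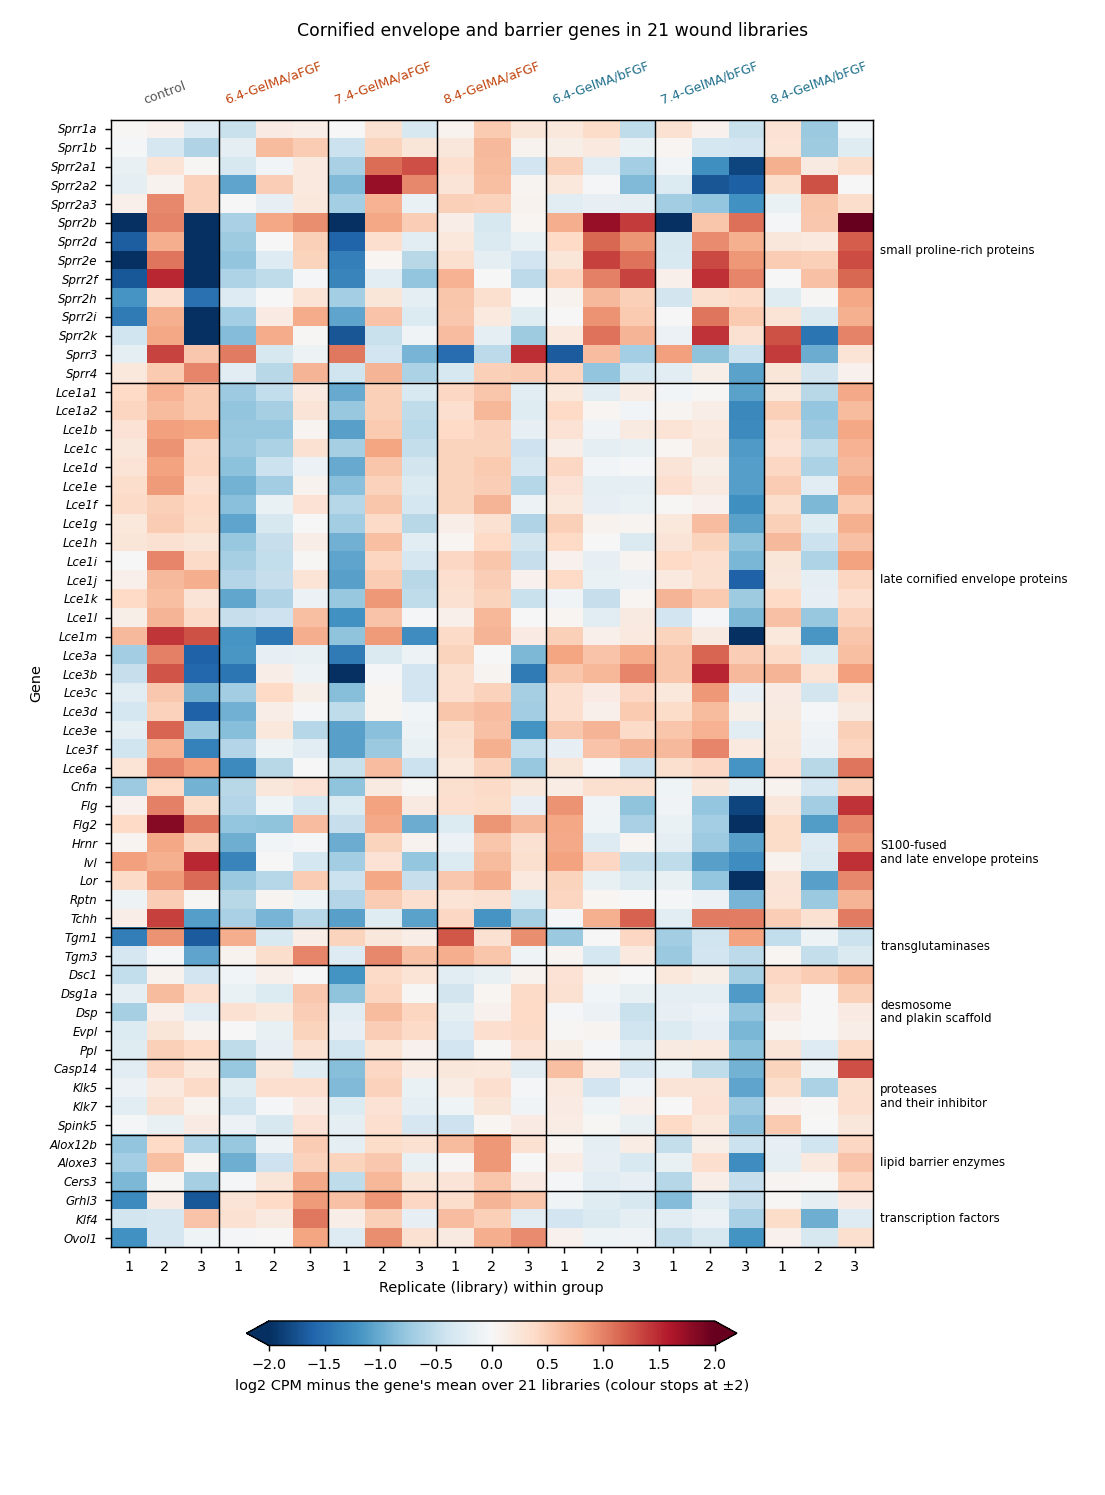
Rows are the 60 genes in 8 role groups and columns the 21 libraries, and the colour is the log2 CPM minus the gene's mean over all libraries. The libraries 7.4-GelMA/bFGF replicate 3 and control replicate 3 hold the lowest level of 27 and 15 genes, and control replicate 2 and 8.4-GelMA/bFGF replicate 3 the highest of 14 and 13.

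Few libraries held most of the extremes, as the heatmap of all genes by library shows. In 7.4-GelMA/bFGF replicate 3, 27 of the 60 genes had their lowest level, among them Lor, Flg, Dsp, Klk7 and 10 of the 14 Lce1 genes. The summed level of 7 basal keratinocyte markers in that library was also the lowest of all, 1796 CPM against 2331 to 4462 CPM in the other libraries. In control replicate 3, 15 genes had their lowest level, and 11 of these were Sprr2 or Lce3 genes, whereas Lor and Ivl had their highest level there. The 7 Sprr2 genes other than Sprr2a summed to 36.5 CPM in control replicate 3 and the 14 Lce1 genes to 286 CPM, whereas the sums were 358 and 88.9 CPM in 7.4-GelMA/bFGF replicate 3. In 7.4-GelMA/aFGF replicate 1 both were low, with 87.1 and 110 CPM.

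Whether the growth factor mattered was asked with the mean of the 3 aFGF groups against the mean of the 3 bFGF groups. A gene was called when edgeR's quasi-likelihood test gave a Benjamini-Hochberg adjusted p under 0.05 over all genes and the log2 fold change went beyond 0.58. Of the 60 genes, 4 were called, against 3.2% of all 15811 genes tested. Grhl3, Tgm3 and Ovol1 were higher with aFGF (1.46% of all genes were called in this direction) and Tchh was lower (1.74%). At an unadjusted p under 0.05 stood 16 of the 60 genes, 26.7%, beside 28% of all genes, so that the share of the list was near the background. The 60 genes had a median log2 fold change of -0.05, with 25 positive and 35 negative values. Signs here and below are counted over genes of the same libraries, which are not independent. The share of each sign over all genes is not given.

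Grhl3, a grainyhead factor that switches on transglutaminase and barrier genes and is needed for wound closure in the embryo, showed the clearest separation. Its levels were 14.9, 16.6 and 22.7 CPM in 6.4-GelMA/aFGF, 18.8, 22.8 and 16.6 CPM in 7.4-GelMA/aFGF, and 16.0, 20.1 and 18.5 CPM in 8.4-GelMA/aFGF. With bFGF they were 11.8, 10.6 and 10.0 CPM at pH 6.4, 6.88, 10.8 and 9.07 CPM at pH 7.4, and 12.8, 11.1 and 14.1 CPM at pH 8.4. All 9 aFGF libraries lay above all 9 bFGF libraries. No other member had groups without overlap, in either direction, which was the case for 0.658% of all genes. Of the control libraries, 5.17 and 3.86 CPM lay below every hydrogel library, and 14.1 CPM lay at the top of the bFGF range. The log2 fold change was 0.79 with a standard error (SE) of 0.195 and an edgeR adjusted p of 0.0200.

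Ovol1, a zinc-finger repressor that lets keratinocytes leave the cell cycle, had 8.78 to 20.2 CPM with aFGF (median 13.0, n = 9) and 4.60 to 13.1 CPM with bFGF (median 9.93, n = 9). The groups overlapped, and the controls, at 4.53, 8.33 and 9.89 CPM, lay in the bFGF range or just below it. Its log2 fold change was 0.65 (SE 0.198, edgeR adjusted p = 0.0457). This call lay near the threshold, and was lost when any of 14 single libraries was left out, with log2 fold changes of 0.53 to 0.71 and edgeR adjusted p values of 0.0513 to 0.101. These were the 9 bFGF libraries, 6.4-GelMA/aFGF replicates 1 and 3, 7.4-GelMA/aFGF replicate 2, and 8.4-GelMA/aFGF replicates 2 and 3.

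Klf4, a Krueppel-like factor required for the skin barrier, was not called. Its levels were 112 to 268 CPM with aFGF (median 160, n = 9), 66.2 to 168 CPM with bFGF (median 108, n = 9) and 101, 103 and 193 CPM in control. The log2 fold change was 0.62 (SE 0.194, edgeR adjusted p = 0.0510). All 3 transcription factors had an unadjusted p under 0.05 and a positive value. Klf4 was called when control replicate 2 or 3, 6.4-GelMA/aFGF replicate 2, 7.4-GelMA/aFGF replicate 3, 8.4-GelMA/aFGF replicate 3 or 8.4-GelMA/bFGF replicate 1 was left out, with log2 fold changes of 0.62 to 0.75 and edgeR adjusted p values of 0.0246 to 0.0437.

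Tgm3, the transglutaminase that cross-links envelope proteins in the upper epidermis and the hair, had 14.8 to 34.9 CPM with aFGF (median 25.9, n = 9) and 10.6 to 20.4 CPM with bFGF (median 13.9, n = 9), while control had 14.0, 17.3 and 8.52 CPM. In each of the 3 pH pairs the aFGF mean was the higher one, and the ranges overlapped at pH 6.4 and 8.4 but not at pH 7.4. The log2 fold change was 0.75 (SE 0.184, edgeR adjusted p = 0.0204). Tgm1, the membrane-bound transglutaminase whose loss causes ichthyosis, had 62.7 to 184 CPM with aFGF and 46.4 to 136 CPM with bFGF, and was not called (log2 fold change 0.57, SE 0.316, edgeR adjusted p = 0.254).

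Tchh, trichohyalin, which stiffens the inner root sheath of the hair follicle and some specialised epithelia, went the other way. Its levels were 4.99, 4.10 and 5.30 CPM in 6.4-GelMA/aFGF, 3.71, 6.66 and 3.73 CPM in 7.4-GelMA/aFGF and 10.5, 3.48 and 4.94 CPM in 8.4-GelMA/aFGF. With bFGF they were 7.74, 12.8 and 17.7 CPM at pH 6.4, 6.80, 16.1 and 15.9 CPM at pH 7.4, and 11.0, 9.70 and 16.2 CPM at pH 8.4. Only 8.4-GelMA/aFGF replicate 1 reached into the bFGF range, and the controls, at 8.62, 20.3 and 3.64 CPM, spanned both. The log2 fold change was -1.28 (SE 0.309, edgeR adjusted p = 0.0193). The 12 hair follicle keratins listed as markers summed to 0.627 to 1.60 CPM with aFGF and to 0.707 to 1.79 CPM with bFGF, and 3 of them passed the filter on low counts with no call.

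**Figure D2:**
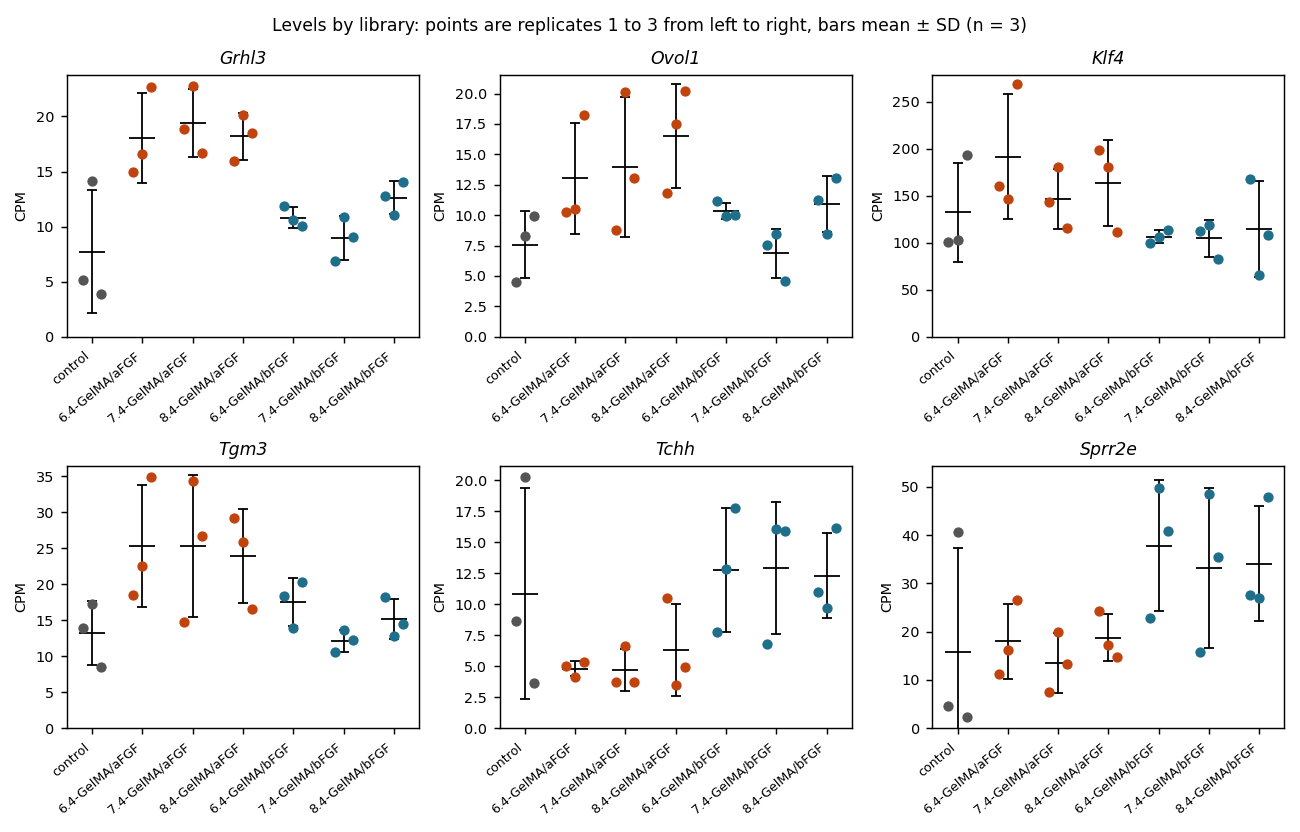
Each panel gives the CPM (linear axis from 0) of 1 gene in the 21 libraries by group, with points for replicates and bars for the mean ± SD (n = 3). Grhl3 separates the 9 aFGF from the 9 bFGF libraries, Tchh and Sprr2e are mostly higher with bFGF, and control replicate 2 stands apart from the other 2 controls in Grhl3, Tchh and Sprr2e.

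The Sprr genes divided by subfamily. The subfamilies were singled out after their values had been seen, and their sums carry no test. Of the 14 Sprr genes, none was called, 7 had a positive value with aFGF and 7 a negative one. All 7 Sprr2 genes other than Sprr2a were negative, with values from -1.17 (Sprr2f) to -0.22 (Sprr2h), while the 3 Sprr2a genes were positive, at 0.41 to 0.62. These are means over 3 pH values, and the division was not the same at each. At pH 6.4 and 7.4 all 7 were negative and all 3 positive, with medians of -0.83 and 0.18 at pH 6.4 and of -0.84 and 1.65 at pH 7.4. At pH 8.4, 6 of the 7 were negative (median -0.65) and 2 of the 3 Sprr2a genes were negative too (median -0.17). The difference between pH values was not tested. Summed over the 7 genes, levels were 87.1 to 312 CPM in the aFGF libraries and 181 to 500 CPM in the bFGF libraries. Sprr2d, the most abundant of them, had 35.8 to 150 CPM with aFGF (median 98.6, n = 9) and 86.3 to 251 CPM with bFGF (median 178, n = 9), a log2 fold change of -0.78 (SE 0.373, edgeR adjusted p = 0.182). Sprr2e had 7.47 to 26.5 CPM with aFGF and 15.7 to 49.7 CPM with bFGF (log2 fold change -1.08, SE 0.432, edgeR adjusted p = 0.114). Sprr1a differed by less than its SE (log2 fold change 0.10, SE 0.159).

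Of the 21 Lce genes, 19 had a negative value with aFGF, and none was called. The 6 Lce3 genes, whose products are linked to psoriasis and to the response to injury, were negative from -1.17 (Lce3b) to -0.30 (Lce3d), and 4 of them had an unadjusted p under 0.05. All 6 were negative at pH 6.4 and 7.4, with medians of -0.78 and -1.12, whereas at pH 8.4 3 were positive and 3 negative (median -0.03). Lce3b had 1.08 to 11.4 CPM with aFGF (median 8.55, n = 9) and 11.1 to 26.3 CPM with bFGF (median 14.5, n = 9), with an edgeR adjusted p of 0.0693. Only 8.4-GelMA/aFGF replicate 1 lay within the bFGF range of Lce3b. The 14 Lce1 genes, which are expressed in normal epidermis, had values from -0.42 to 0.14 and a median of -0.14. The 4 neutrophil markers S100a8, S100a9, Cxcr2 and Csf3r summed to 3610 to 9418 CPM with aFGF and to 2799 to 11321 CPM with bFGF, none of them was called, and their part in the Sprr2 and Lce3 values was not tested.

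Of the scaffold genes 3 of 5, of the lipid enzymes 3 of 3 and of the proteases with their inhibitor 1 of 4 had a positive value with aFGF, and none was called. Dsp had 202 to 359 CPM with aFGF (median 286, n = 9), 135 to 260 CPM with bFGF (median 215, n = 9) and 146, 249 and 199 CPM in control. Its log2 fold change was 0.39 (SE 0.134, edgeR adjusted p = 0.0679), below the fold threshold. Envoplakin (Evpl), which with desmoplakin and periplakin (Ppl) forms the plakin layer under the membrane, had 0.33 (SE 0.134, edgeR adjusted p = 0.115) and Ppl -0.04 (SE 0.165). Cers3, which makes the very long ceramides of the barrier, had 9.69 to 23.5 CPM with aFGF and 9.35 to 18.8 CPM with bFGF (log2 fold change 0.37, SE 0.168, edgeR adjusted p = 0.157). The lipoxygenases Alox12b and Aloxe3, which oxidise these ceramides, had 0.34 (SE 0.195) and 0.19 (SE 0.248). Klk7 had -0.07 (SE 0.129), Klk5, which activates it, 0.10 (SE 0.205), Spink5 -0.14 (SE 0.154) and Casp14, the caspase that degrades filaggrin, -0.16 (SE 0.215). Lor, Ivl, Flg, Flg2, Hrnr, Rptn and Cnfn lay between -0.18 and 0.31, each near or within its SE.

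In this fit all 7 groups, the controls included, shared 1 estimate of the spread. Whether the spread among the controls changed the number of calls was not tested. With the 18 hydrogel libraries alone, 10 of the 60 genes were called, against 3.77% of 15696 genes. DESeq2 on all 21 libraries called 8 of the 60, against 4.15% of all genes, which were Grhl3, Klf4, Ovol1, Tgm3, Tchh, Lce3a, Lce3b and Sprr2f. Higher with aFGF among the 10 were Grhl3, Tgm3, Ovol1 and Klf4, and lower were Tchh, Sprr2e, Sprr2f, Lce3a, Lce3b and Lce3f. Sprr2f had an adjusted p of 0.00937 and Lce3a of 0.0205 in the edgeR fit of the hydrogel libraries, which was chosen after the data had been seen. The same 10 genes were called when control replicate 2 alone was left out, and 7 without control replicate 3. The calls over all genes moved as well, from 269 to 714 with single libraries left out. The value of each such fit is not given here, so that the 10 and the 7 have no background of their own. In the opposite direction, 0 of the 60 genes were called when the 3 libraries with genes of other tissues were left out together, against 2.33% of 15906 genes, while 12 of the 60 (20.0%) had an unadjusted p under 0.05, beside 25% of all genes. Grhl3, Tgm3 and Tchh then had log2 fold changes of 0.77, 0.68 and -1.18 and edgeR adjusted p values of 0.0629, 0.0806 and 0.0616. Leaving out any single library kept the call of these 3 genes.

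**Figure D3:**
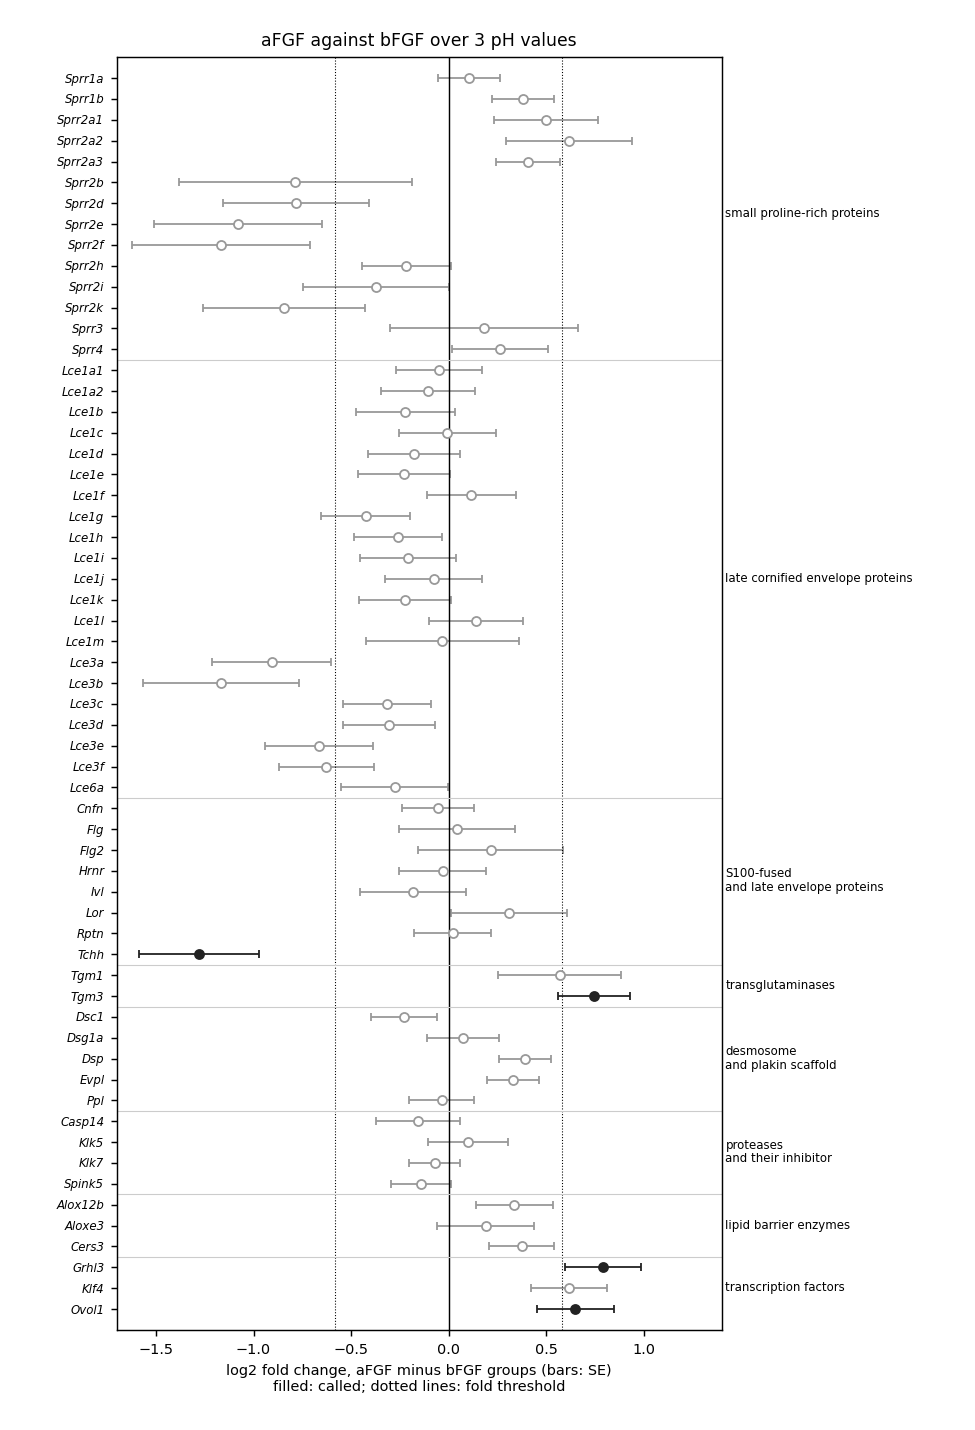
Points are the log2 fold changes of the 60 genes between the mean of the aFGF groups and the mean of the bFGF groups, with bars for the SE, filled where called and open elsewhere. Grhl3, Tgm3 and Ovol1 lie to the right and Tchh to the left, and the Sprr2 genes other than Sprr2a and all Lce3 genes have negative values with wide bars.

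No marker of basal, suprabasal or wound edge keratinocytes was called between the factors. The log2 fold changes of Krt5, Krt14, Krt1, Krt10, Krt6a and Krt16 lay between -0.11 and 0.30. The 7 basal markers were all positive, with a median of 0.18. Of the 6 suprabasal markers 5 were positive (median 0.19), and of the 4 wound edge markers 3 (median 0.15). The basal keratinocyte score, the mean log2 CPM of the 7 basal markers, was also added as a covariate. Grhl3 (0.70), Tgm3 (0.68) and Tchh (-1.21) were then still called by edgeR and Ovol1 was not (0.38, adjusted p = 0.0589). The score holds no suprabasal marker, and the part of suprabasal cells was not tested.

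At single pH values, taken from the fit of all 21 libraries, edgeR called 0 of the 60 genes at pH 6.4, 7.4 and 8.4, against 0%, 0.0759% and 0.0632% of all genes. An unadjusted p under 0.05 was found for 5 of the 60 at pH 6.4 (8.33%, against 7.15% of all genes), for 12 at pH 7.4 (20.0%, against 14.8%) and for 2 at pH 8.4 (3.33%, against 20.1%). In the fit of the 6 libraries of pH 8.4, where 0.00665% of 15041 genes were called, 0 of the 60 genes were called and 6 had an unadjusted p under 0.05 (10.0%, against 21.1% of all genes). Tgm1 had 184, 96.6 and 148 CPM in 8.4-GelMA/aFGF and 55.0, 72.7 and 57.6 CPM in 8.4-GelMA/bFGF, so that the groups did not overlap. Its log2 fold change was 1.21 (SE 0.241, edgeR adjusted p = 0.102). Dsc1, desmocollin of the upper epidermis, had 48.6, 51.3 and 59.5 CPM with aFGF and 75.4, 80.9 and 90.4 CPM with bFGF, and again the groups did not overlap (log2 fold change -0.63, SE 0.119, edgeR adjusted p = 0.101). Groups without overlap were found for 4 of the 60 genes, which also included Grhl3 and Sprr2e, and for 27.7% of all genes. DESeq2 called 2 genes here, Dsc1 and Tgm1, among 5.24% of all genes. Of the 6 libraries, 8.4-GelMA/aFGF replicate 2 and 8.4-GelMA/bFGF replicate 2 held genes of other tissues. Without both, edgeR called 0 of the 60 genes (0% of 15067 genes) and 5 had an unadjusted p under 0.05 (8.33%, against 13.3% of all genes), with Tgm1 at 1.55 (SE 0.170, edgeR adjusted p = 0.168) and Dsc1 at -0.63 (SE 0.174, edgeR adjusted p = 0.293). The signs depended on these libraries, since 30 of the 60 genes were positive with them and 9 without them. All 6 Lce3 genes, all 14 Lce1 genes and all 7 Sprr2 genes other than Sprr2a were negative without them. DESeq2 was not run without them.

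The effect of a weakly acidic gel was asked with pH 6.4 against pH 7.4. With aFGF, 0 of the 60 genes and 0% of 15019 genes were called by edgeR, and 0 of the 60 genes had an unadjusted p under 0.05, against 4.99% of all genes. No member's groups were free of overlap (10.9% of all genes). The smallest p belonged to Flg, with 26.4, 37.4 and 31.3 CPM at pH 6.4 and 32.9, 69.5 and 45.3 CPM at pH 7.4 (log2 fold change -0.64, SE 0.287, adjusted p = 0.832). DESeq2 also called 0 of the 60 (0.112% of all genes). Without 7.4-GelMA/aFGF replicate 3, 0 of the 60 genes were called (0% of 15250 genes) and 0 had an unadjusted p under 0.05, against 6.83% of all genes, with Flg at -0.69 (SE 0.340).

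With bFGF, 59 of the 60 genes passed the filter, Sprr3 being too low, and again 0 were called by edgeR (0% of 14976 genes). Here 4 genes had an unadjusted p under 0.05 (6.78%, against 8.89% of all genes), and all 4 were higher at pH 6.4 (4.89% of all genes in this direction). Involucrin (Ivl), an early envelope scaffold, had 19.4, 14.7 and 7.97 CPM at pH 6.4 and 7.81, 5.19 and 4.66 CPM at pH 7.4, without overlap (log2 fold change 1.27, SE 0.372, edgeR adjusted p = 0.542). Sprr2a3 had 18.1, 18.9 and 18.8 CPM against 13.1, 12.4 and 9.10 CPM (log2 fold change 0.71, SE 0.172, edgeR adjusted p = 0.542), and it was the single member that DESeq2 called, among 0.632% of all genes. The other two were Tgm3 (0.55) and Hrnr (0.88). Groups without overlap were found for 6 of the 59 genes (15.3% of all genes), Ivl, Sprr2a3, Tgm3, Ovol1, Rptn and Dsg1a, all higher at pH 6.4. Of the 59 genes, 49 had a positive value. On the pH 7.4 side stood 7.4-GelMA/bFGF replicate 3, which held the lowest sum of basal keratinocyte markers, the lowest sum of 8 skeletal muscle markers (272 CPM, against 14332 and 14801 CPM in replicates 1 and 2) and the highest sum of the neutrophil markers (11321 CPM, against 3904 and 4400 CPM). Without it 29 of 60 genes were positive, so that the excess of positive values rested on this library. Then 0 were called by edgeR (1.83% of 15199 genes) and 4 had an unadjusted p under 0.05 (6.67%, against 15.1% of all genes), with Ivl at 1.12 (SE 0.404, edgeR adjusted p = 0.282) and Sprr2a3 at 0.55 (SE 0.118, edgeR adjusted p = 0.101).

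Whether the pH step differed between the factors was tested as an interaction. Of the 60 genes, 0 were called (0% of 15449 genes), and by DESeq2 also 0 (0.153% of all genes). Ivl (-1.42, SE 0.614) and Flg (-1.55, SE 0.697) had an unadjusted p under 0.05 (3.33% of the members, against 6.09% of all genes), and both had an edgeR adjusted p of 0.808. Without 7.4-GelMA/aFGF replicate 3, 0 of the 60 were called and 1 had an unadjusted p under 0.05 (1.67%, against 7.51% of 15659 genes).

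The group 6.4-GelMA/aFGF was also set against the mean of the other 6 groups. By edgeR 0 of the 60 genes were called (0% of 15811 genes), by DESeq2 also 0 (0.0481%), and 5 had an unadjusted p under 0.05, 8.33% against 5.66% of all genes. These were Klf4 (0.60), Tgm3 (0.56), Grhl3 (0.56), Dsp (0.37) and Tchh (-0.96), and their adjusted p values were 0.844 or higher. Of the 60 genes, 14 had a positive value and 46 a negative one, with a median of -0.22. All 21 Lce genes were negative, as were Flg, Flg2, Hrnr, Rptn, Tchh, Lor, Ivl and Cnfn. Klf4 was highest in 6.4-GelMA/aFGF replicate 3, with 268 CPM, a library that also had the highest basal keratinocyte score of the 21. A test of any difference among the 7 groups gave 0 members at an edgeR adjusted p under 0.05 (0.114% of 15811 genes), 6 at an unadjusted p under 0.05 (10.0%, against 19.3% of all genes) and 6 by DESeq2 at an adjusted p under 0.05 (10.8% of all genes). The 6 were Grhl3, Sprr2a3, Ivl, Tgm3, Ovol1 and Tchh in both tools. Without the 3 libraries that held genes of other tissues, 0 of the 60 were called for 6.4-GelMA/aFGF and 4 had an unadjusted p under 0.05 (6.67%, against 5.68% of all genes). For any difference among the groups, 0 then passed by edgeR (0.0189% of all genes) and 3 had an unadjusted p under 0.05 (5.00%, against 15.8% of all genes).

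The hydrogels were compared with control as the mean of the 6 hydrogel groups. With all 21 libraries, 0 of the 60 genes were called by edgeR, against 0.00632% of 15811 genes, and DESeq2 also called 0 (0.914% of all genes). At an unadjusted p under 0.05 stood 11 genes, 18.3% against 16.7% of all genes, 4 of them higher and 7 lower with a hydrogel (6.29% and 10.4% of all genes). No member separated the 18 hydrogel from the 3 control libraries (0.607% of all genes). The 7 lower genes were Ivl, Lor, Flg2, Lce1b, Lce1m, Lce6a and Sprr2a3, and the 4 higher ones Grhl3, Ovol1, Cers3 and Sprr2h. Without the 3 libraries that held genes of other tissues, 0 were called and 7 had an unadjusted p under 0.05 (11.7%, against 15.8% of 15906 genes), with Ivl at -1.09 (SE 0.322) and Lor at -0.76 (SE 0.345). Over all 21 libraries Ivl had 19.5, 18.2 and 31.6 CPM in control and 4.45 to 30.6 CPM in the hydrogel libraries (median 9.08, n = 18), a log2 fold change of -1.13 (SE 0.327, edgeR adjusted p = 0.148). Lor had 215, 297 and 362 CPM in control and 37.6 to 319 CPM with a hydrogel (median 148, n = 18), a log2 fold change of -0.84 (SE 0.367, edgeR adjusted p = 0.265). All 14 Lce1 genes had negative values, from -1.13 (Lce1m) to -0.23 (Lce1h), with a median of -0.52, and none was called. The median over all 60 genes was -0.09.

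The controls did not form 1 level for the Sprr2 and Lce3 genes. Summed over the 7 Sprr2 genes other than Sprr2a, control had 72.2, 384 and 36.5 CPM, and the hydrogel libraries 87.1 to 500 CPM. Replicates 1 and 3 therefore lay below every hydrogel library and replicate 2 within their range. Sprr2d had 34.4, 179 and 18.5 CPM in control and 35.8 to 251 CPM with a hydrogel (median 126, n = 18). The 6 Lce3 genes summed to 40.9, 94.0 and 21.4 CPM in control, and to 24.5 to 106 CPM with a hydrogel. Tgm1 had 29.8, 145 and 24.4 CPM in control, and 46.4 to 184 CPM with a hydrogel (median 85.3, n = 18). The Sprr1 genes showed no such split, with sums of 267, 260 and 208 CPM in control. The 3 Sprr2a genes summed to 36.6, 59.0 and 46.7 CPM, within the hydrogel range.

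The result of this comparison depended on control replicate 2, which lay above the other controls in Tgm1 and in the summed Sprr2 genes other than Sprr2a. Of the 21 libraries left out in turn, it was the one whose removal gave the most calls. Only 2 controls then remained. The same values entered the choice and the test, so that the p values below are not separate support. Without control replicate 2, edgeR called 11 of the 60 genes, against 7.4% of 16069 genes. Of these, 10 were higher with a hydrogel (3.62% of all genes) and Ivl was lower (3.78%). The 10 were Sprr2b, Sprr2d, Sprr2e, Sprr2f, Sprr2h, Sprr2i, Tgm1, Grhl3, Cnfn and Cers3, the ceramide synthase of the skin barrier. Grhl3 had a log2 fold change of 1.64 (SE 0.207, edgeR adjusted p = 0.00162), Sprr2e of 2.83 (SE 0.537, adjusted p = 0.00837), Sprr2d of 2.31 (SE 0.507, adjusted p = 0.0142) and Tgm1 of 1.70 (SE 0.393, adjusted p = 0.0173). Ivl had -1.28 (SE 0.385, adjusted p = 0.0439). DESeq2 and limma, run on these 20 libraries after the data had been seen, called 16 and 11 of the genes, against 8.92% and 8.14% of all genes. Control replicate 2 also differed in its markers of another cell type. The 4 neutrophil markers summed to 1137, 7608 and 706 CPM in the controls and to 2799 to 11321 CPM in the hydrogel libraries. The 7 basal keratinocyte markers summed to 2610, 3049 and 3319 CPM in the controls. The part of these cells in the Sprr2 and Lce3 values was not tested.

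**Figure D4:**
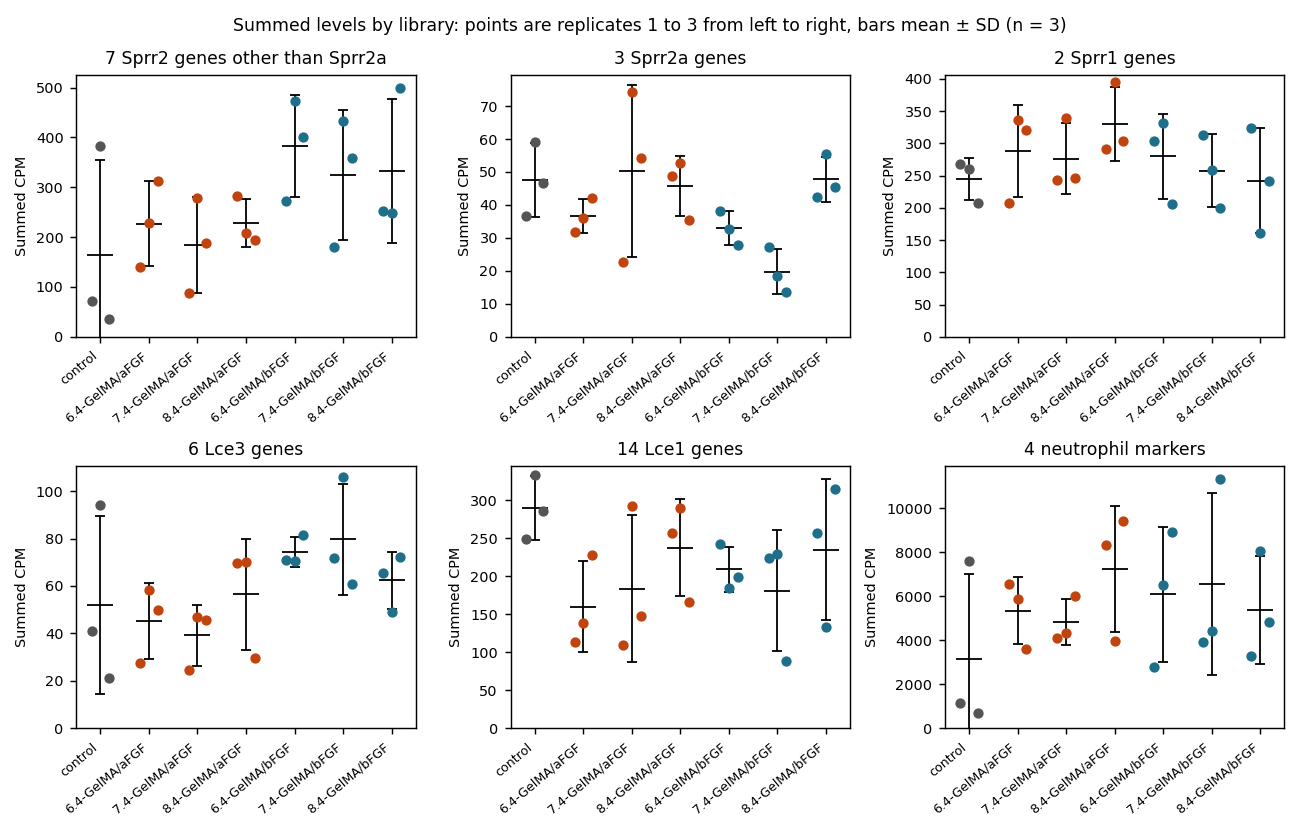
Panels give the summed CPM (linear axes from 0, lower bar ends cut at 0) of 5 gene families and of 4 neutrophil markers in the 21 libraries, with points for replicates 1 to 3 and bars for the mean ± SD (n = 3). In control, replicates 1 and 3 lie low for the 7 other Sprr2 genes (72.2 and 36.5 CPM), for Lce3 and for the neutrophil markers, and replicate 2 lies high, whereas Sprr1, Sprr2a and Lce1 show no such gap.

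The level of each of 21 genes was set beside the basal keratinocyte score over the 21 libraries, to show which barrier genes moved with the amount of epidermal RNA. The 21 were, in each role, the 2 most abundant genes and the gene with the smallest p among the 7 groups, and the genes called between the factors. Permutation tests with 100000 resamples were adjusted over the 21 genes. Both Pearson's r and Spearman's rho passed for 6 genes, Dsp, Lor, Ovol1, Klk7, Lce1a2 and Casp14, and Pearson's r alone for 4 more. Only these 21 genes were correlated, so that no share over all genes stands beside the counts. Dsp had an r of 0.786 (adjusted permutation p = 0.00063) and a rho of 0.673 (adjusted permutation p = 0.0175), and r was 0.66 without the 2 libraries farthest from the median score. Lor had an r of 0.722 (adjusted permutation p = 0.00273) and a rho of 0.571 (adjusted permutation p = 0.0339), with r at 0.522 without these 2 libraries. Ovol1 had an r of 0.714 (adjusted permutation p = 0.00189) and a rho of 0.571 (adjusted permutation p = 0.0339), with r at 0.547 without them. Without the 3 libraries that held genes of other tissues, a choice made after the data had been seen, Pearson's r passed for 11 genes and both measures for 2, Dsp and Klk7, over 18 libraries. Dsp then had an r of 0.836 and a rho of 0.738, while Lor (r 0.737, rho 0.556) and Ovol1 (r 0.732, rho 0.595) passed by r but not by rho, with adjusted permutation p values of 0.0660 and 0.0561. Over all 21 libraries, the deviations from the group means gave an r of 0.821 for Dsp, 0.818 for Lor and 0.853 for Ovol1.

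The remaining genes passed by neither measure, which does not show that a relation was absent. Dsc1, Ivl and Sprr1a had an r of 0.473, 0.459 and 0.453, each with an adjusted permutation p of 0.0613. Sprr2d had an r of -0.0697 and a rho of 0.0649, with adjusted permutation p values of 0.757 and 0.779. Cnfn had an r of 0.177, Lce3f of -0.235, Tgm1 of -0.226 and Tchh of -0.335, none of which passed. Grhl3 and Tgm3, which were called between the factors, had an r of 0.351 and 0.346, each with an adjusted permutation p of 0.165. The 2 libraries farthest from the median score of 7.15 were 6.4-GelMA/aFGF replicate 3 at 7.70 and 7.4-GelMA/bFGF replicate 3 at 6.15. CPM are shares of a library, and the score and the genes come from the same libraries.

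**Figure D5:**
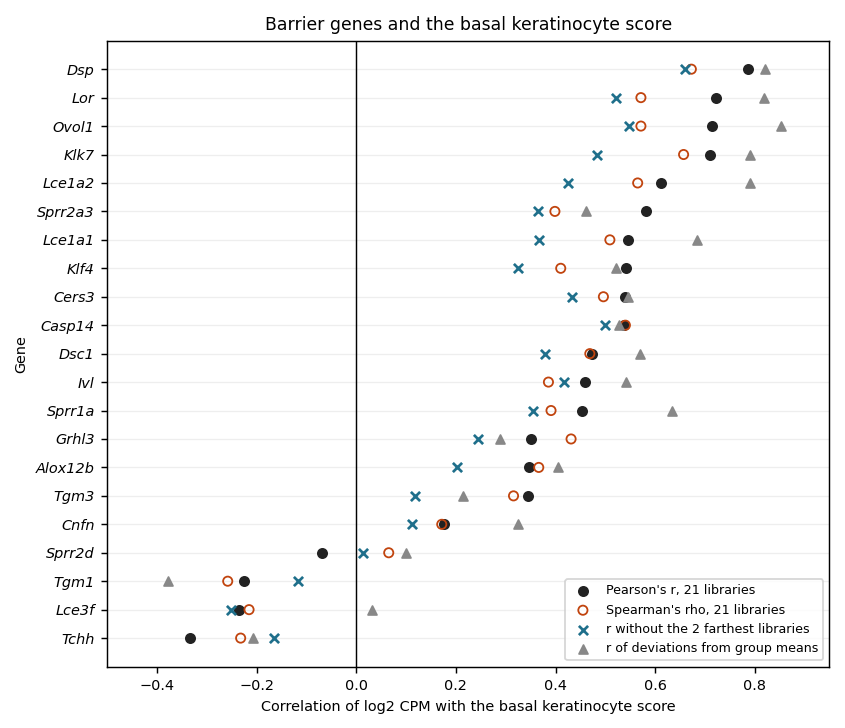
Symbols give the correlation of the log2 CPM of 21 barrier genes with the basal keratinocyte score over 21 libraries, as Pearson's r, Spearman's rho, r without the 2 farthest libraries and r of deviations from group means. Dsp (0.786), Lor (0.722), Ovol1 (0.714) and Klk7 (0.71) lie at the top and Tchh (-0.335) at the bottom.

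A wider list of 94 genes of keratinization, junctions, barrier lipids, their proteases and their regulators was counted in the same comparisons. Of these, 92 were in the files and 90 passed the filter. This list was not counted without the 3 libraries that held genes of other tissues. Between aFGF and bFGF 6 of the 90 were called by edgeR, 6.67% beside 3.2% of all genes, and 0 in the comparisons with control, between pH values or at pH 8.4. At an unadjusted p under 0.05 there were 30 between the factors (33.3%, against 28% of all genes), 13 against control (14.4%, against 16.7%) and 21 of 89 at pH 8.4 (23.6%, against 21.1%). Between pH 6.4 and 7.4 there were 0 of 88 with aFGF (against 4.99%) and 10 of 88 with bFGF (11.4%, against 8.89%).

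The most distinct was Aqp3, the glycerol and water channel of keratinocytes. It had 111 to 247 CPM with aFGF (median 153, n = 9), 27.3 to 76.9 CPM with bFGF (median 53.2, n = 9) and 51.8, 72.3 and 62.3 CPM in control, so that all aFGF libraries lay above all others. Its log2 fold change was 1.63 (SE 0.179, edgeR adjusted p = 0.000231). Lypd3, a surface protein of suprabasal and migrating keratinocytes, had 95.9 to 142 CPM with aFGF (median 117, n = 9), 43.3 to 71.0 CPM with bFGF (median 63.6, n = 9) and 56.0, 72.6 and 56.9 CPM in control, again without overlap. Its log2 fold change was 0.91 (SE 0.102, edgeR adjusted p = 0.000259). The transcription factor Tfap2a (0.60) was also higher with aFGF. The desmosomal cadherin Dsc2 (-0.70) and the cysteine protease inhibitor Csta1 (-0.61) were lower. Aqp3 and Lypd3 were also the 2 genes of the list that differed among the 7 groups by edgeR.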

How the data were processed

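Total RNA of mouse wound tissue was sequenced from stranded mRNA libraries, 21 in all with 3 per group. Raw gene-level counts and FPKM values were deposited by the authors. Each FPKM value is the count over a fixed gene length and over the library total (checked on 15915 genes with at least 20 counts). The submitters' processing notes name the build GRCm39. The aligner, the counting tool and the annotation are not given in the sources used here. No coordinates are printed, since the RefSeq table at hand is of another assembly.

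The count model was edgeR 4.0.16 in R 4.3.3, with TMM scaling, its default filter by group and the quasi-likelihood test over all genes. Comparisons of 2 groups used their 6 libraries, the interaction 12, and the others all 21 with 1 mean per group. All 60 members passed the filter over 21 libraries. A call needed both an adjusted p (Benjamini-Hochberg) under 0.05 and an absolute log2 fold change over 0.58. The genes and lists were chosen with earlier results of these data known. Named are, in each role, the 2 members with the highest mean FPKM and the one with the smallest p among the 7 groups, the members called, 6 keratins, and the listed barrier genes called. Other genes named, and the subfamilies, were chosen after their values were seen.

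Alternatives were DESeq2 1.42.0, limma 3.58.1 (on log2(FPKM + 1) for genes whose mean FPKM reached 1, or unfiltered on log2(FPKM + 0.1)), RLE or no scaling factors, all genes unfiltered, only genes with 10 counts or more throughout, the replicate number as a block, the basal keratinocyte score as a covariate, 3 libraries left out together, each library left out in turn, and, added after the data had been seen, single pH values, the 18 hydrogel libraries alone, DESeq2 and limma without control replicate 2, and the correlations without the 3 libraries. The tests were tried on simulated counts. P-values of the group tests weigh a difference against the spread between libraries within groups. Which mouse each library came from is not given, so that the spread between mice was not measured separately. No sequences are printed. Of the genes called in the wider list, 1 is not reported here.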

Additional observations from a re-analysis of the deposited data

How the results depend on the processing

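Between aFGF and bFGF 4 of the 60 genes were called, and DESeq2 called 8, the 18 hydrogel libraries alone 10, each pH value alone 0, 0 and 0, and the fit without the 3 libraries holding genes of other tissues 0. Leaving out single libraries gave 3 to 10 calls (269 to 714 over all genes), with 10 without control replicate 2 and 7 without control replicate 3. Between the hydrogels and control the count was 0. Single libraries left out gave 0 to 11 (0 to 1189 over all genes), with 11 without control replicate 2. Without that library DESeq2 called 16 and limma on FPKM 11. DESeq2 called 1 gene between 6.4-GelMA/bFGF and 7.4-GelMA/bFGF, 2 between 8.4-GelMA/aFGF and 8.4-GelMA/bFGF and 6 for any difference among the 7 groups. In these 3 comparisons edgeR called 0. For any difference, the edgeR count was 0 to 3 with single libraries left out, beside 7 to 864 over all genes. The 3 came without control replicate 2. At pH 8.4 alone 3 of the 6 Lce3 genes, 1 of the 7 Sprr2 genes other than Sprr2a and 2 of the 3 Sprr2a genes had the opposite sign to the mean over the pH values, Lce3f among them (0.063, adjusted p = 0.950). Both correlation measures passed for 6 genes over 21 libraries and for 2 without the 3 libraries holding genes of other tissues. The causes of these differences were not tested. With the replicate number as a block, 3 genes were called between the factors (Grhl3, Tgm3 and Tchh), and no other count of calls moved by over 1.5 times. The numbers do not pair the libraries, since 14 of 63 same-numbered pairs had a correlation over 0.1 (range -0.638 to 0.423), and 5 of 21 libraries correlated best with their own number. With 3 libraries per group and the spread within groups given above, a gene without a call may still differ. Genes of few counts, such as Sprr3 with as few as 4, were measured less exactly.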
